A study of Mus musculus with 16 samples.

Results

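The guanylate-binding proteins and the immunity-related GTPases are 2 families of interferon-inducible GTPases, and 10 mouse genes of these families are described here. The 6 guanylate-binding protein genes were Gbp2, Gbp3, Gbp4, Gbp5, Gbp6 and Gbp7, and the 4 immunity-related GTPase genes were Iigp1, Igtp, Irgm1 and Irgm2. They were found by symbol through their Ensembl identifiers and made up 10 of the 21804 genes of the count table. The set was selected on expression values of these same libraries, with their genotype results known, so its genotype differences are given as a description and not as a test.

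RNA was sequenced from brain pieces of C57BL/6 mice aged 4 months, 4 animals of each of 2 genotypes, with 1 cortex and 1 thalamus library per animal. Pdgfb ret/ret mice carried the retention allele of platelet-derived growth factor B on both copies, and the Pdgfb ret/wt controls carried it on 1 copy, so no group was free of the allele. The allele is a germline change that takes away the stretch by which the secreted growth factor stays near the vessel that made it, and mice with both copies have few pericytes, the cells that wrap capillaries. Vessel-associated calcifications form in the ret/ret thalamus and not in the other 3 groups, per the study's design. The ret/ret thalamus pieces were isolated calcifications, found by their autofluorescence, whereas the matching region was taken from controls, so genotype and dissection cannot be told apart in the thalamus. The pieces were whole tissue, in which fewer cells of a type and less RNA per cell cannot be told apart.

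Both families are known as cell-autonomous defence proteins. Interferon-gamma, which acts on gamma-activated sites (GAS), and type I interferon, which acts on interferon-stimulated response elements (ISRE), switch their genes on in many cell types. The proteins gather on the membranes around intracellular microbes. Immunity-related GTPases fall into regulators (Irgm1, Irgm2 and Igtp), which sit on the cell's own membranes and hold effectors inactive there, and effectors such as Iigp1, which attack the microbe's vacuole. Guanylate-binding proteins work downstream of this step, and some of them feed into inflammasomes, the complexes that activate inflammatory caspases.

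The 10 genes lay in 5 places of the genome (GENCODE M21, GRCm38). Gbp5, Gbp7, Gbp3 and Gbp2 lay in this order on the plus strand at chr3:142493978-142638008. Gbp4 and Gbp6 lay on the minus strand at chr5:105115767-105293698, and Gbp4 overlapped the spans annotated for Gbp8 and Gbp9. Irgm1 lay on the minus strand at chr11:48861968-48871683. Igtp (chr11:58199556-58207591) and Irgm2 (chr11:58199618-58222782) overlapped on the plus strand. The fifth place, that of Iigp1, is named with its values. The share of a gene's 31-base words that occurred in no other annotated gene was 84.1% (Igtp) to 97.8% (Irgm1) in 9 of the 10 genes. It was 25.8% in Gbp6, which shared 67.8% of its words with the gene model Gm43302, so the reads assigned to Gbp6 were uncertain. Igtp shared 15.9% of its words with Irgm2.

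RefSeq promoter entries (GRCm38.p6) were matched for 7 of the 10 genes, and none was used for Gbp4, Gbp6 or Iigp1. The 250 bases before each RefSeq start were searched on both strands for the ISRE letters (GAAA, any 2 bases, GAAA) and the GAS letters TTCNNNGAA. The ISRE letters were found before a start of all 7 genes, against 2.98% of 32851 mouse promoters of the same length. The GAS letters were found in 4 genes (Gbp5, Gbp7, Igtp and Irgm2), against 7.02%, and these 4 held both motifs, against 0.332%. The second RefSeq start of Gbp3 held neither. A match of letters is a description of the sequence and shows no binding. The 7 stretches below end at the last base before the start and are shown because they hold the matches just described. Each runs 5′ to 3′ along the gene, with matches in capitals (TTCNNNGAA reads alike on both strands, and the ISRE read on the other strand is TTTC, any 2 bases, TTTC).
Irgm1, chr11:48871421-48871540, minus strand: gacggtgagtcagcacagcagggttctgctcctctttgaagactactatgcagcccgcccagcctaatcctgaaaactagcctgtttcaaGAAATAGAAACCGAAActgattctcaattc
Irgm2, chr11:58214857-58214976, plus strand: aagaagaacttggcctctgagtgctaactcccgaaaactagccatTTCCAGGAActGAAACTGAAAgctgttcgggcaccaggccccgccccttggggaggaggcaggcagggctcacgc
Igtp, chr11:58199436-58199555, plus strand: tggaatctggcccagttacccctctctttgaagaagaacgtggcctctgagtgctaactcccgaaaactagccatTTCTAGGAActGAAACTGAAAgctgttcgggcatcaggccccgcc
Gbp2, chr3:142620543-142620662, plus strand: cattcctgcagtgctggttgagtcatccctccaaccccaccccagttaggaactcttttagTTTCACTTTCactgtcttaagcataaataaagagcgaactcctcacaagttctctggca
Gbp3, chr3:142559924-142560043, plus strand: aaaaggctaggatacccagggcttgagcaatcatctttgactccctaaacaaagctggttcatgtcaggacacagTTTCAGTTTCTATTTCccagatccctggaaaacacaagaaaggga
Gbp7, chr3:142530216-142530335, plus strand: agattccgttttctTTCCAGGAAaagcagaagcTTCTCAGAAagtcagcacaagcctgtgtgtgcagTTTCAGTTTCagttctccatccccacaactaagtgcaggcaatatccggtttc
Gbp5, chr3:142496684-142496933, plus strand: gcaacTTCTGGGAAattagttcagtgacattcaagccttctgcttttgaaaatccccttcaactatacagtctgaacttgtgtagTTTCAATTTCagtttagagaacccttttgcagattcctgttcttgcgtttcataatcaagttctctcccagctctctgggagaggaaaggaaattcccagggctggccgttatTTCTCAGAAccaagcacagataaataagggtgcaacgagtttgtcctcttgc
In Irgm1 and in Gbp3 a pair of ISRE matches overlapped. Counting from -1 at the last base before the start, they ran from -30 to -15 in Irgm1 and from -45 to -30 in Gbp3. No GAS match overlapped an ISRE match in these 7 genes. In Igtp the GAS match (-45 to -37) and the ISRE match (-34 to -25) were neighbours, and the same arrangement lay at -75 to -67 and -64 to -55 in Irgm2. Over the 250 bases searched, Igtp and Irgm2 shared an identical run of 55 bases, which lay upstream of the stretches shown and held no match. The longest run shared by any other pair was 13 bases (Gbp7 and Gbp3). The RefSeq starts of Gbp5, Gbp3, Gbp2, Irgm1 and Irgm2 lay inside the spans that GENCODE gives these genes.

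The libraries held 13415391 to 29135064 counts, so the floor of 3 counts stood at 0.103 to 0.224 counts per 1000000 (CPM). All 10 genes lay above that floor in all 16 libraries, with 17 counts at the lowest (Iigp1) and 1026 at the highest (Gbp3). Their levels are given as CPM scaled by TMM over the 16 libraries. Between thalamus and cortex, edgeR's quasi-likelihood test (adjusted p under 0.05) called 4 of 6 cortical neuron markers lower in each genotype, and it called 4 of 6 thalamic neuron markers higher in ret/wt and 2 of 6 in ret/ret. Some libraries stood apart. The cortex libraries of ret/wt animal 3 and ret/ret animal 2 had summed levels of 6 cerebellum markers of 1046 and 2651 CPM, against 134 to 225 CPM in the other 6 cortex libraries. These same 2 animals were the ones with reads of the Y-linked gene Ddx3y, and their thalamus libraries had sums of the 6 thalamic neuron markers of 2559 and 2816 CPM, against 523 to 1033 CPM in the other 6 thalamus libraries. In the cortex library of ret/ret animal 2 the 6 cortical neuron markers summed to 211.5 CPM, against 435.5 to 834.1 CPM in the other cortex libraries. The 6 thalamic neuron markers summed to 727.9 CPM in that library, against 144.5 to 388.8 CPM in the other cortex libraries. The cortex library of ret/wt animal 4 had a choroid plexus marker sum of 1131 CPM, against 9.38 to 68.1 CPM in the other cortex libraries.

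Compared per kilobase of the longest coding transcript, Irgm1 was the most abundant of the 10 in every group. Its level was 5.95 ± 1.54 CPM per kilobase in ret/wt cortex, 5.63 ± 1.28 in ret/wt thalamus, 9.40 ± 1.97 in ret/ret cortex and 9.19 ± 3.20 in ret/ret thalamus (SD, n = 4 each). In ret/wt cortex its lowest library (3.94 CPM per kilobase) and the highest library of Igtp, the gene next in order (4.08), overlapped. Gbp3 came next to Irgm1 in both ret/ret groups, at 5.04 ± 2.82 and 7.44 ± 6.38 CPM per kilobase (SD, n = 4), and Gbp2 in ret/wt thalamus, at 2.86 ± 1.37 (SD, n = 4). The last places were held by Iigp1, Gbp4 and Gbp7. Iigp1 was the lowest of the 10 in both ret/wt groups, at 0.393 ± 0.113 CPM per kilobase in cortex and 0.609 ± 0.271 in thalamus (SD, n = 4). In all 4 groups, the libraries of any 2 genes next to each other in this order overlapped.

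**Figure D1:**
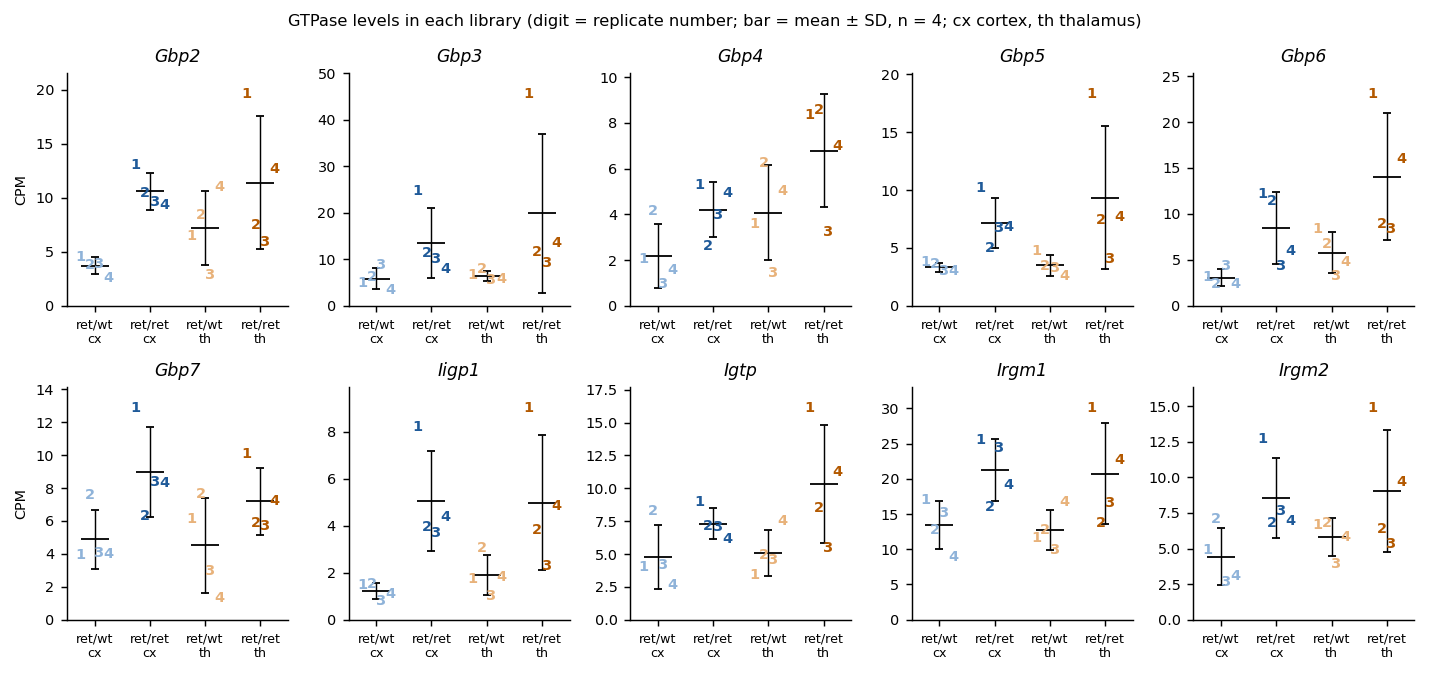
Level of each of the 10 genes in CPM (vertical axis, starting at 0) in the 4 groups; each digit is 1 library and gives its replicate number, and the bar shows mean ± SD (n = 4). In ret/ret cortex the digit 1 is the highest in all 10 panels, and in ret/ret thalamus in 9.

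In cortex, the region without calcifications, the mean level of all 10 genes was higher in ret/ret than in ret/wt animals. Fold changes ran from 1.56 for the regulator Igtp to 4.18 for the effector Iigp1, and the groups did not overlap for Gbp2, Gbp5 and Iigp1. The question this comparison bears on is which differences the retention allele brings in a region that does not calcify.

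Iigp1, the effector, stood at 1.49, 1.53, 0.791 and 1.09 CPM in ret/wt cortex and at 8.21, 3.93, 3.69 and 4.36 CPM in ret/ret cortex (replicates 1 to 4). Every ret/ret library was above every ret/wt library, and ret/ret replicate 1 was the highest. The log2 fold change was 2.06 ± 0.40 (SE), the highest of the 10. Iigp1 lies alone among them on chromosome 18, on the plus strand. Irgm1, a regulator that is also known for a part in autophagy, stood at 16.95, 12.8, 15.1 and 8.91 CPM in ret/wt and at 25.5, 16.01, 24.3 and 19.2 CPM in ret/ret cortex. The groups overlapped by a single control library, replicate 1. Its log2 fold change was 0.68 ± 0.24 (SE).

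Irgm2, another regulator, stood at 4.87, 7.09, 2.68 and 3.10 CPM in ret/wt cortex and at 12.7, 6.80, 7.67 and 6.97 CPM in ret/ret cortex. Igtp, the third regulator, stood at 4.00, 8.26, 4.13 and 2.66 CPM in ret/wt cortex and at 8.93, 7.15, 7.05 and 6.12 CPM in ret/ret cortex. Both overlapped because ret/wt replicate 2 was high, and in each gene the other 3 controls were below all ret/ret libraries. The log2 fold changes were 0.97 ± 0.37 (SE) for Irgm2 and 0.64 ± 0.35 (SE) for Igtp, which was at 1.02 without ret/wt replicate 2. These are the neighbouring genes whose promoters share the 55-base run.

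Among the guanylate-binding proteins, Gbp2, which encodes a lipid-anchored protein that gathers on microbial vacuoles, stood at 4.47, 3.80, 3.91 and 2.61 CPM in ret/wt cortex. In ret/ret cortex it stood at 13.1, 10.4, 9.64 and 9.31 CPM. The ret/ret libraries lay close together and all lay above the highest control, and the log2 fold change was 1.54 ± 0.26 (SE). Gbp5, known for promoting assembly of the NLRP3 inflammasome, stood at 3.77, 3.58, 2.99 and 2.99 CPM in ret/wt and at 10.2, 4.97, 6.68 and 6.77 CPM in ret/ret cortex. The groups did not overlap, and the log2 fold change was 1.12 ± 0.29 (SE).

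Gbp3 stood at 4.79, 6.21, 8.71 and 3.42 CPM in ret/wt cortex and at 24.7, 11.3, 10.1 and 8.01 CPM in ret/ret cortex. Gbp6, whose reads are uncertain, stood at 3.14, 2.41, 4.31 and 2.34 CPM in ret/wt and at 12.2, 11.4, 4.27 and 5.93 CPM in ret/ret. In both genes the lowest ret/ret library was just under the highest control, ret/wt replicate 3. The log2 fold changes were 1.24 ± 0.41 (SE) for Gbp3, or 0.78 without ret/ret replicate 1, and 1.49 ± 0.40 (SE) for Gbp6. Gbp7 ran from 3.92 to 7.60 CPM in ret/wt and from 6.32 to 12.9 CPM in ret/ret cortex, with a log2 fold change of 0.90 ± 0.33 (SE). Gbp4, which the annotation overlays with Gbp8 and Gbp9, ran from 0.967 to 4.17 CPM and from 2.62 to 5.30 CPM, with a log2 fold change of 0.97 ± 0.47 (SE), or 1.47 without ret/wt replicate 2. Both of these genes overlapped between genotypes.

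Of all 14288 genes tested in cortex, 51.9% had a log2 fold change above 0, as had 10 of the 10 members, and 1.95% had one above 1, as had 5 members. The share of genes with ret/ret libraries all above the ret/wt libraries was 1.58%, beside 3 of 10 members. The median log2 fold change was 1.04 over the members and 0.01 over all genes. With edgeR's quasi-likelihood test and Benjamini-Hochberg adjustment, 0 of 10 members were called at an adjusted p under 0.05, where 0.021% of all genes were, and the smallest adjusted p of a member was 0.2245 (Gbp2). At an unadjusted p under 0.05 the members numbered 8, beside 3.77% of all genes. DESeq2 called 2 members, Gbp2 (adjusted p = 1.58e-05) and Iigp1 (adjusted p = 0.00169), beside 0.266% of all genes. Since the genes were chosen with this contrast known, nothing is read from these counts. Without ret/ret replicate 1, 5 members had an unadjusted p under 0.05 in edgeR and the median was 0.81. The members with no overlap were then Gbp2, Gbp5 and Iigp1 (3.17% of all genes). Leaving out a library cannot make separate groups overlap, so nothing is read from this. Without the 2 animals with Y-linked reads and high cerebellum marker sums, the median was 1.08. There 7 members had no overlap (5.28% of all genes), a count that leaving out libraries can only keep or raise.

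In thalamus, where the ret/ret pieces were calcifications, the mean of all 10 genes was again higher in ret/ret. Fold changes ran from 1.60 (Irgm2) to 3.19 (Gbp3), and only Gbp3 and Gbp6 showed no overlap between the groups. The spread among the ret/ret libraries was wide, with replicate 1 the highest in 9 of 10 genes and replicate 3 the lowest in 9 of 10.

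Gbp3 stood at 6.52, 7.99, 5.44 and 5.82 CPM in ret/wt thalamus and at 45.5, 11.5, 9.21 and 13.6 CPM in ret/ret thalamus. All ret/ret libraries were above all controls, but replicate 1 was 3.98 times the mean of the other 3. The log2 fold change of 1.68 ± 0.49 (SE) became 0.85 without that library. Gbp5 stood at 4.71, 3.44, 3.23 and 2.58 CPM in ret/wt and at 18.3, 7.42, 4.07 and 7.65 CPM in ret/ret thalamus. One ret/ret library, replicate 3, was below the highest control, and the log2 fold change was 1.46 ± 0.45 (SE), or 0.90 without ret/ret replicate 1.

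Gbp6 stood at 8.38, 6.77, 3.23 and 4.72 CPM in ret/wt and at 23.0, 8.85, 8.39 and 15.95 CPM in ret/ret thalamus. The lowest ret/ret library (8.389 CPM) was only just above the highest control (8.377 CPM), and the log2 fold change was 1.32 ± 0.40 (SE). Gbp2 stood at 6.48, 8.37, 2.87 and 11.1 CPM in ret/wt and at 19.6, 7.47, 5.92 and 12.6 CPM in ret/ret thalamus. Unlike in cortex its groups overlapped widely, with ret/ret replicates 2 and 3 inside the range of the controls. The log2 fold change was 0.70 ± 0.47 (SE), or 0.29 without ret/ret replicate 1 and 0.43 without ret/wt replicate 3. Gbp4 and Gbp7 also overlapped, with log2 fold changes of 0.77 ± 0.47 (SE) and 0.72 ± 0.48 (SE). Gbp4 was at 0.49 without ret/wt replicate 3, and Gbp7 at 0.42 without ret/wt replicate 4 and 1.09 without ret/wt replicate 2.

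Among the immunity-related GTPases, Iigp1 stood at 1.73, 3.05, 1.02 and 1.81 CPM in ret/wt and at 8.999, 3.80, 2.28 and 4.83 CPM in ret/ret thalamus. A single ret/ret library, replicate 3, was below the highest control, and the log2 fold change was 1.43 ± 0.49 (SE). Igtp stood at 3.37, 4.94, 4.54 and 7.49 CPM in ret/wt and at 16.1, 8.54, 5.48 and 11.3 CPM in ret/ret, with a log2 fold change of 1.05 ± 0.39 (SE). Irgm1 ran from 9.87 to 16.7 CPM in ret/wt and from 13.7 to 30.0 CPM in ret/ret, and Irgm2 from 3.95 to 6.82 and from 5.33 to 14.9 CPM. Their log2 fold changes were 0.74 ± 0.29 (SE) and 0.68 ± 0.36 (SE), and each overlapped in 2 ret/ret libraries. Without ret/ret replicate 1 they were 0.49 and 0.32.

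Of 14767 genes tested in thalamus, 47.1% had a log2 fold change above 0, beside 10 of 10 members, and 2.51% had one above 1, beside 5 members. Of all genes, 1.7% had no overlap with ret/ret higher, beside 2 of 10 members. The median was 0.91 over the members and -0.02 over all genes. The quasi-likelihood test of edgeR called 0 of 10 members and 0% of all genes at an adjusted p under 0.05, with an adjusted p of 0.9998 for each member. At an unadjusted p under 0.05 there were 6 members, beside 3.93% of all genes, and DESeq2 called 0 members, beside 0.251% of all genes. As in cortex, nothing is read from these counts. Without ret/ret replicate 1 the median of the members was 0.69 and 3 had an unadjusted p under 0.05 in edgeR. Gbp3 and Gbp6 were then the members with no overlap (2.23% of all genes), which leaving out a ret/ret library could not have undone.

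**Figure D2:**
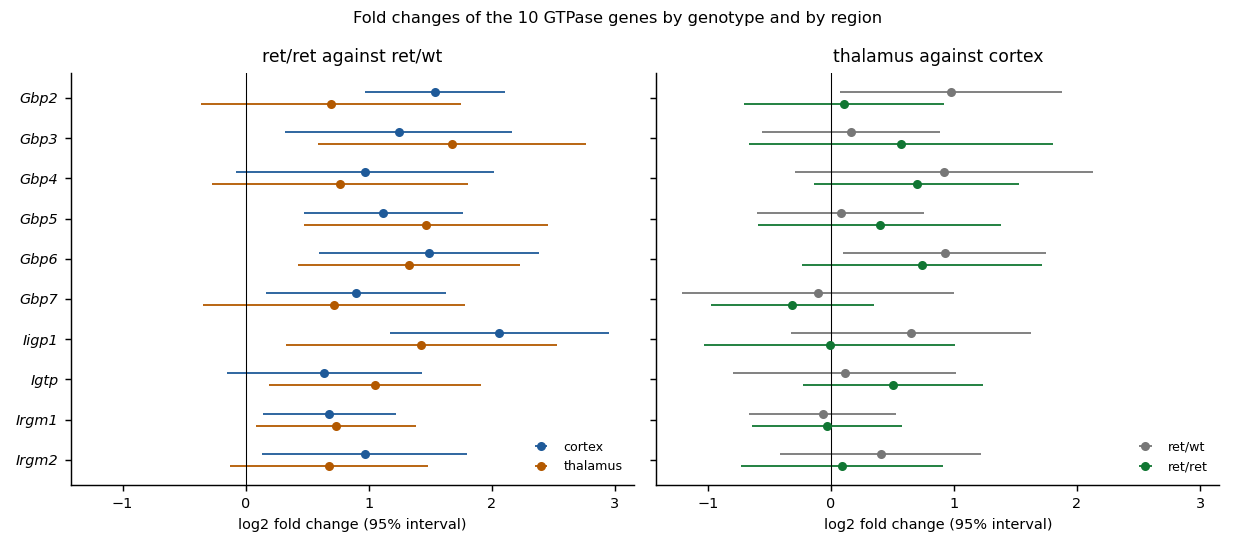
Log2 fold changes (horizontal axis) with 95% intervals of the 10 genes, for ret/ret against ret/wt in each region (left) and for thalamus against cortex in each genotype (right). On the left all points are above 0; on the right the points run from -0.31 to 0.98, and the only intervals that leave out 0 are those of Gbp2 and Gbp6 in ret/wt.

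The difference between the genotype effects of the 2 regions (thalamus minus cortex) was estimated over all 16 libraries. It was lowest in Gbp2 at a log2 value of -0.86 ± 0.55 (SE; 95% interval -2.03 to 0.32), followed by Iigp1 at -0.66 ± 0.63 (SE; -1.99 to 0.68). It was highest in Gbp3 at 0.41 ± 0.67 (SE; -1.01 to 1.83) and in Igtp at 0.41 ± 0.53 (SE; -0.71 to 1.52). Of the 10 members 4 were above 0, beside 44.4% of all 15286 genes, and all 10 intervals included 0. In edgeR 0 members and 0% of all genes were called, and 0 members and 1.6% of all genes had an unadjusted p under 0.05. DESeq2 called 0 members and 0.0262% of all genes. The intervals are wide enough to hold differences of more than 2-fold in either direction in 4 of the 10 genes.

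Thalamus and cortex were then compared within each genotype. This contrast shares its libraries with the genotype contrast, and it is not known whether region results entered the choice of genes, so its values are also given as a description. No member passed the test in either genotype. In ret/wt animals the members' log2 fold changes (thalamus against cortex) ran from -0.11 (Gbp7) to 0.98 (Gbp2), with a median of 0.29 against 0.03 over all genes, and 8 of 10 were above 0, beside 52.2% of all genes. The quasi-likelihood test called 0 of 10 members, where it called 12.6% of all 14442 genes, and DESeq2 also called 0, beside 17.9%. The 2 members with an unadjusted p under 0.05 (27% of all genes) were Gbp2, at 0.98 ± 0.41 (SE; adjusted p = 0.1527 in edgeR), and Gbp6, at 0.93 ± 0.37 (SE; adjusted p = 0.1402 in edgeR). For Gbp2, 3 of 4 thalamus libraries were above every cortex library, and replicate 3 was inside the cortex range. Without that thalamus library Gbp2 was called, at a log2 fold change of 1.24 (edgeR adjusted p = 0.0414).

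In ret/ret animals, where the thalamus pieces were calcifications and the cortex had none, the members' log2 fold changes ran from -0.31 (Gbp7) to 0.74 (Gbp6), with a median of 0.25 against -0.02 over all genes, and 7 of 10 were above 0, beside 48.7% of all genes. The quasi-likelihood test called 0 of 10 members, where it called 9.5% of all 14715 genes, and 0 members had an unadjusted p under 0.05, beside 26.7% of all genes. DESeq2 called 0 members, beside 17.6%. Irgm1 was at 21.2 ± 4.44 CPM in ret/ret cortex and 20.8 ± 7.23 CPM in ret/ret thalamus (SD, n = 4 each), a log2 fold change of -0.03 with a 95% interval of -0.64 to 0.58. Iigp1 was at 5.05 ± 2.13 and 4.98 ± 2.88 CPM (SD, n = 4 each), a log2 fold change of -0.01 with an interval of -1.03 to 1.01. For Irgm1 the interval left no room for a change of 2-fold in either direction. For Gbp3 (-0.67 to 1.81) it left room for a 2-fold rise but not for a 2-fold fall. Without the thalamus library of ret/ret animal 1 the median of the members turned to -0.25, with 3 of 10 above 0, and 0 were called.

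The 10 genes moved together from library to library. Over the 16 libraries the 45 pairs of members had a median Pearson r of 0.77 in log2 CPM (0.41 to 0.91), and a median of 0.60 (0.09 to 0.89) once the group means were taken out. These values describe libraries that share animals, depth and tissue makeup. In ret/ret animal 1 the cortex library was the highest of its group in 10 of 10 members, at 1.29 (Irgm1) to 2.52 (Gbp3) times the mean of the other 3. The thalamus library of this animal was the highest in 9 of 10, at 1.33 (Gbp4) to 3.98 (Gbp3) times that mean, and for Gbp4 replicate 2 was slightly higher. The same 2 libraries had the highest sums of 12 endothelial markers, 549 CPM in cortex and 599.9 CPM in thalamus, against 176 to 379 CPM in the other 14 libraries. They also had the highest sums of 10 microglial markers, 643 and 777 CPM, against 311 to 546 CPM. What part these cells had in the level of the GTPases was not tested.

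Genes outside the set whose level followed it closely were named by their Pearson r with the mean of the members' standardised log2 CPM. Among them were Myct1 (0.93), Clec14a (0.93), Parp14 (0.93), H2-Q4 (0.92), Itm2a (0.91), Kdr (0.91) and Cd93 (0.90), over 16 libraries. Over all 15276 genes the median r was -0.03, and 0.36% had an r above 0.8. Parp14 and H2-Q4, a class I major histocompatibility gene, are known interferon-responsive genes, and Clec14a, Kdr (the main receptor for vascular endothelial growth factor) and Cd93 are known endothelial genes. Without both libraries of ret/ret animal 1, a choice made after seeing the data, 6 of these 7 were again among the 8 highest and Kdr was at rank 12. With group means removed, these 7 ranked from 7 to 59.

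**Figure D3:**
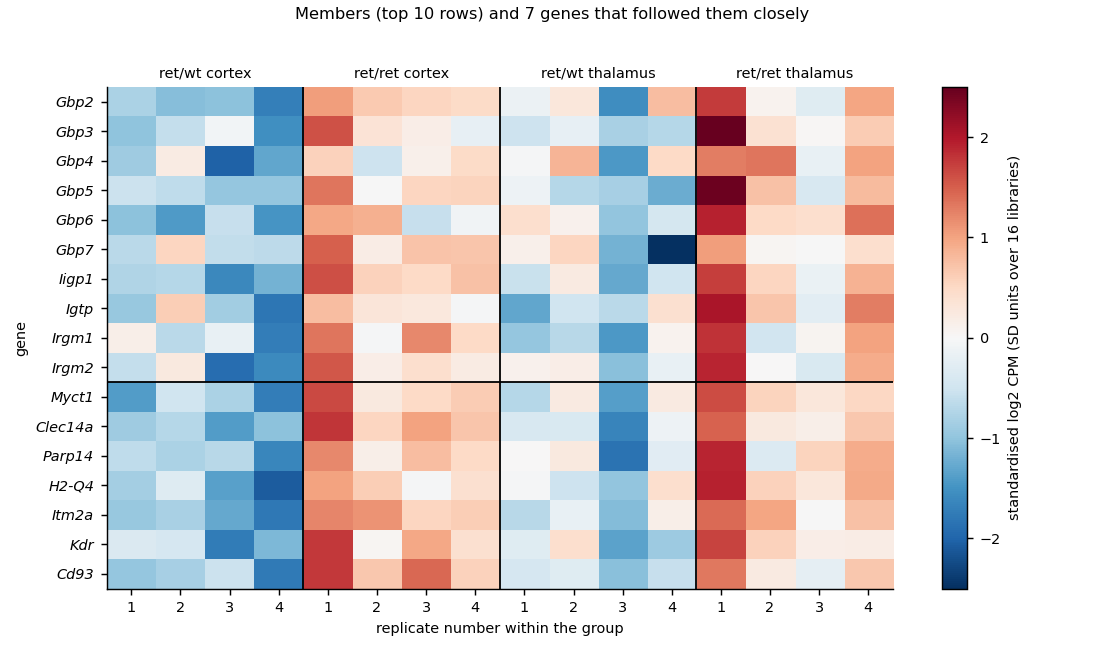
Standardised log2 CPM (colour, in SD units over the 16 libraries) of the 10 members (upper rows) and of 7 genes that followed them closely (lower rows), with libraries in columns by group and replicate number. The first ret/ret column of each region is the darkest red in most rows, and ret/wt cortex replicate 4 and ret/wt thalamus replicate 3 are blue in most rows.

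The rest of the pathway is given from lists of genes. The ligand Ifng, which encodes interferon-gamma, was listed at 0 in 14 of 16 libraries and did not exceed the floor of 3 counts except in ret/ret thalamus replicate 1, where it stood at 0.222 CPM against a floor of 0.143. The receptor chains of interferon-gamma, Ifngr1 and Ifngr2, had log2 fold changes in ret/ret against ret/wt of 0.24 ± 0.18 and 0.09 ± 0.25 (SE) in cortex and of 0.13 ± 0.22 and -0.84 ± 0.51 (SE) in thalamus. Those of type I interferon, Ifnar1 and Ifnar2, had 0.09 ± 0.14 and 0.39 ± 0.22 (SE) in cortex and 0.43 ± 0.31 and 0.47 ± 0.22 (SE) in thalamus. None of the 4 receptor genes was called in either region.

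Of the transcription factors, Irf1 had 0.20 ± 0.35 and 0.50 ± 0.36 (SE), and Irf9, the DNA-binding part of the type I complex, 0.31 ± 0.31 and 0.51 ± 0.26 (SE), in cortex and thalamus. Across the 10 tested genes of interferon-gamma signalling the median log2 fold change was 0.21 in cortex and -0.01 in thalamus. Across the 7 of type I signalling it was 0.26 and 0.43.

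Most other target genes of interferon that could be tested also had log2 fold changes above 0, beside 51.9% of all genes in cortex and 47.1% in thalamus. A gene low in ret/wt could pass the filter through its ret/ret libraries alone, which favours values above 0. Of 21 tested type I interferon targets (26 in the table), 21 had a log2 fold change above 0 in cortex (median 0.97), and 22 of 25 in thalamus (median 0.67). Other interferon-inducible GTPases (15 in the table) had 8 of 9 tested above 0 in cortex (median 1.13) and 10 of 12 in thalamus (median 0.55). They include Ifi47, an immunity-related GTPase of chromosome 11, at 1.77 ± 0.50 (SE) in cortex and 0.40 ± 0.51 (SE) in thalamus. Of the 11 other tested interferon-gamma targets, most of them genes of antigen processing, 8 were above 0 in cortex (median 0.46) and 7 in thalamus (median 0.69). In the inflammasome list 4 of 6 were above 0 in each region (medians 0.18 and 0.41), and in the list of autophagy conjugation, the machinery that places GTPases on vacuoles, 7 and 5 of 10 (medians 0.10 and -0.0033). The quasi-likelihood test called 0 genes of these 7 lists by genotype in either region, beside 0.021% of all genes in cortex and 0% in thalamus. At an unadjusted p under 0.05 there were 9 of 21 type I targets in cortex and 5 of 25 in thalamus, 5 of 9 and 1 of 12 other GTPases, 2 of 11 and 1 of 11 other interferon-gamma targets, 2 of 10 and 1 of 10 genes of interferon-gamma signalling and 0 of 6 and 1 of 6 inflammasome genes. Type I signalling (7 tested) and autophagy conjugation (10 tested) had 0 in each region, and the shares of all genes were 3.77% in cortex and 3.93% in thalamus. Between regions the quasi-likelihood test called 2 genes of these lists, beside 12.6% of all genes in ret/wt and 9.5% in ret/ret. Casp1 was lower in thalamus than in cortex of ret/wt animals, at a log2 fold change of -2.45 ± 0.48 (SE; edgeR adjusted p = 0.00805). Atg16l1 was lower in thalamus of ret/ret animals, at -0.66 ± 0.17 (SE; edgeR adjusted p = 0.0449). With such shares of all genes called, nothing is read from these 2 calls.

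**Figure D4:**
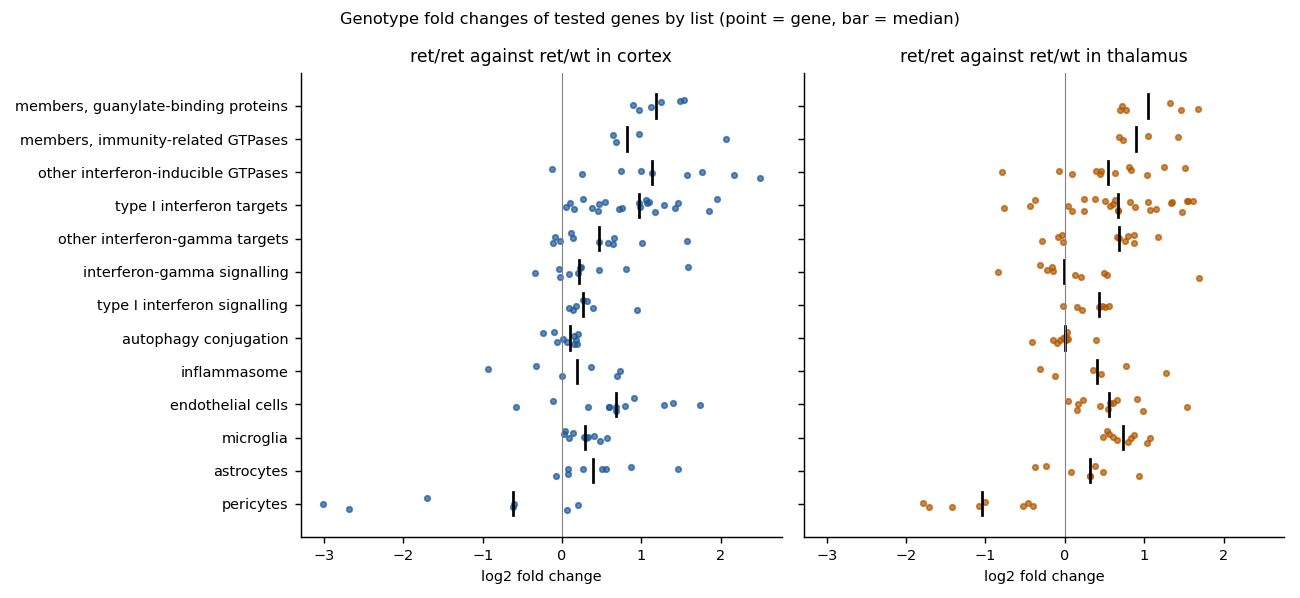
Log2 fold change in ret/ret against ret/wt (horizontal axis) of each tested gene (points) by list, in cortex (left) and thalamus (right), with a bar at each list's median. The members' medians were 1.18 and 1.05 for guanylate-binding proteins and 0.82 and 0.90 for immunity-related GTPases, and the medians of pericyte markers were -0.62 and -1.04.

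Markers of endothelial cells and of microglia, cell types known to respond to interferon, also had medians above 0 by genotype. Summed levels of the 12 endothelial markers were 176 to 270 CPM in ret/wt cortex and 259 to 549 CPM in ret/ret cortex, and 253 to 335 CPM against 289 to 599.9 CPM in thalamus. Between regions (thalamus against cortex), 12 of 12 of these markers were above 0 in ret/wt (median 0.37) and 9 of 12 in ret/ret (median 0.21). By genotype, 10 of 12 had a log2 fold change above 0 in cortex (median 0.68) and 12 of 12 in thalamus (median 0.56). The markers moved unevenly in cortex. From ret/wt to ret/ret the mean of Slco1a4 went from 33.2 to 86.0 CPM and that of Eng from 16.5 to 54.2 CPM. Flt1 went from 54.1 to 49.4 CPM and Ly6c1 from 20.85 to 13.8 CPM. The endothelial sum is therefore no plain measure of endothelial content. Summed levels of the 10 microglial markers were 333 to 475 CPM in ret/wt and 311 to 643 CPM in ret/ret cortex, and 331 to 420 against 523 to 777 CPM in thalamus, where the groups did not overlap. All 10 of these had a log2 fold change above 0 by genotype in each region (medians 0.29 and 0.73). Set against the endothelial sum of its own library, the sum of the 10 GTPases was 20.9% ± 3.04 in ret/wt and 26.5% ± 2.97 in ret/ret cortex, and 20.1% ± 3.93 and 27.4% ± 5.84 in thalamus (SD, n = 4 each). Set against the microglial sum it was 11.5% ± 2.44 and 20.1% ± 4.38 in cortex, and 15.6% ± 4.49 and 18.5% ± 5.70 in thalamus (SD, n = 4 each). In cortex the ratio to the microglial sum did not overlap between genotypes (16.4% at the lowest in ret/ret, 14.3% at the highest in ret/wt), and the other 3 ratios did. The part of these cells in the genotype difference was not tested.

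Lymphocyte markers were near the floor. The 12 T and natural killer cell markers summed to 1.02 to 3.81 CPM in the other 3 groups and to 3.73 to 11.3 CPM in ret/ret thalamus, with the highest value again in animal 1. Ncr1, a defining natural killer cell gene, had at most 3 counts in every library. In the thalamus library of animal 1, the T cell receptor gene Trac made up 6.12 CPM of that sum. In the same library Cd3e, Cd3d and Cd3g stood at 0.0887, 0.222 and 0 CPM, and Cd4 and Cd8a at 1.995 and 0.842 CPM. Of the 12 markers, only 2 could be tested between regions in ret/ret. Trac was the 1 marker of this list called between regions, where 9.5% of all genes were called. It was higher in ret/ret thalamus than in ret/ret cortex, at 3.70 ± 1.69 against 0.340 ± 0.361 CPM (SD, n = 4 each; edgeR adjusted p = 0.0203). In ret/wt animals Trac was also higher in thalamus, at 1.73 ± 0.831 against 0.442 ± 0.393 CPM (SD, n = 4 each), and was not called. The part of T cells in the level of the GTPases in ret/ret thalamus was not tested. Pericyte markers were lower in sum, from 101 to 149.8 CPM in ret/wt to 46.9 to 115 CPM in ret/ret cortex, and overlapped in both regions.

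Among the 14 marker lists, the 1 gene called by genotype was the pericyte gene Rgs5, lower in ret/ret cortex at a log2 fold change of -1.70 ± 0.20 (SE; edgeR adjusted p = 0.0410). In thalamus Rgs5 had -1.43 ± 0.19 (SE; edgeR adjusted p = 0.2159). Median log2 fold changes by genotype in cortex and thalamus were 0.38 and 0.32 for astrocytes, 0.46 and 0.20 for oligodendrocytes, 0.03 and -0.03 for neurons, 0.09 and -0.17 for border macrophages and monocytes and -0.08 and -0.05 for fibroblasts and meninges. They were 0.83 and -0.08 for thalamus neurons, -0.17 and -0.21 for cortex neurons, -1.72 and -0.43 for choroid plexus and 1.498 and -0.05 for cerebellum. Of the B cell markers 0 could be tested in cortex and 1 in thalamus (-0.68). Between regions the called genes included all 7 oligodendrocyte markers, higher in thalamus than in cortex in both genotypes.

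**Figure D5:**
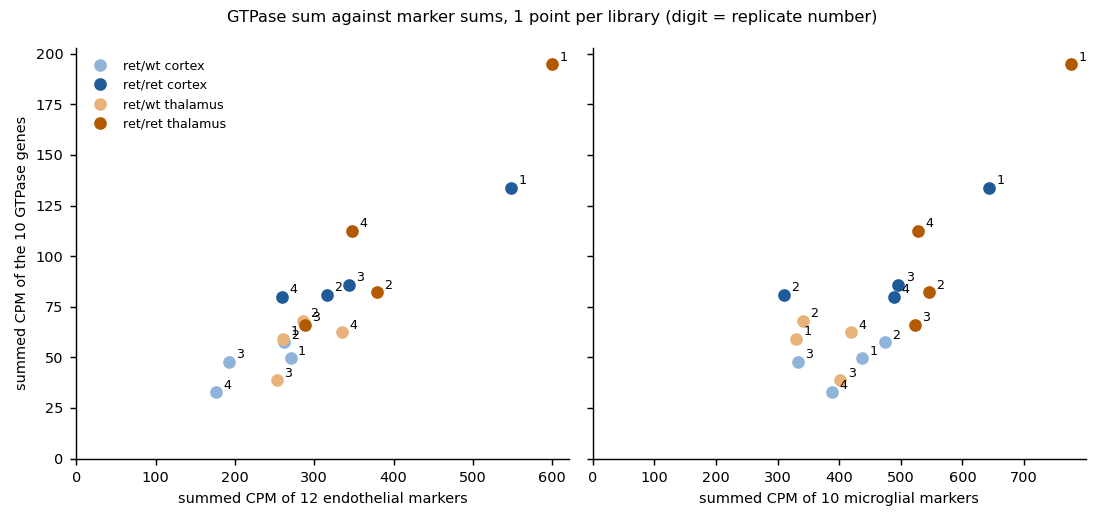
Summed CPM of the 10 GTPases (vertical axis) against summed CPM of endothelial markers (left) and microglial markers (right); each point is 1 library, coloured by group, and the digit is its replicate number. The 2 libraries of ret/ret animal 1 lie at the upper right, at 134 and 195 CPM of GTPases, and the controls lie between 32.6 and 68.0 CPM.

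Neighbouring genes of other families were examined as a local background, by a rule added after the files were seen: the nearest named protein-coding gene on each side of each cluster. The 10 neighbours were Pdlim5 and Kyat3 beside the chromosome 3 cluster, Abcg3 and Lrrc8b on chromosome 5, Trim7, Psme2b, Mrpl22 and Zfp692 on chromosome 11, and Chsy3 and Smim3 on chromosome 18. Abcg3 and Psme2b were low, with group means of at most 0.53 and 0.18 CPM. The neighbours were not all close, at 9.8 (Trim7) to 840 kilobases (Chsy3) from the members. The 8 that could be tested in cortex had log2 fold changes of -0.83 (Trim7) to 0.02 (Kyat3) by genotype, against 0.64 to 2.06 in the members. The 9 tested in thalamus had -0.24 (Lrrc8b) to 0.45 (Abcg3), against 0.68 to 1.68 in the members. All of them overlapped between genotypes.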

How the data were processed

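The deposited values were expected counts per Ensembl gene, estimated with kallisto 0.44.0 on GRCm38.p6, per the submitters' processing notes. Of 279913 nonzero values 0 were exactly whole (with no tolerance), and all were rounded before fitting. GENCODE M21 gave symbols for 21581 of 21804 genes, and 0 columns were left out.

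Genes passed edgeR's filterByExpr (minimum count 10, minimum total 15), were scaled by TMM and were tested with the quasi-likelihood test (edgeR 4.0.16, limma 3.58.1, R 4.3.3) on the 8 libraries of each comparison, or on all 16 for the interaction. Calls used a Benjamini-Hochberg adjusted p-value under 0.05, taken across every gene tested. Tables and plots used Python 3.11.15, pandas 2.3.3, numpy 2.4.6 and matplotlib 3.10.9. On simulated data for these comparisons, 55.5% (interaction, 15286 genes) to 80% (ret/wt regions, 14442 genes) of 200 genes planted at a log2 fold of 2 were recovered, with false calls at 2.63% to 6.92% of calls. DESeq2 1.42.0, its size factors, no filter, all 16 libraries in 1 fit, a replicate block, each library left out, and leaving out 2 animals with Y-linked reads were the alternatives.

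The labels give each animal's identity, so each cortex library had a thalamus library of the same animal, and equal numbers across genotypes were different animals. The main region and interaction fits held no term for the animal, so they did not use this pairing. A block for the animal was run only as an alternative. The residuals of an animal's 2 libraries correlated at 0.07 on average across genes (-0.02 to 0.24 over 8 animals).

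The members, the 7 pathway lists, the 14 cell type lists and the alternatives were chosen with earlier results of these data known. Named were all members, list genes called in a comparison, the interferon ligands, receptors and factors, and the 8 genes most like the members, with some results of these not reported here. The rest of the list genes named and the neighbouring genes were chosen after their values were seen. Among these list genes were Ifi47, Trac, Ncr1, Cd3e, Cd3d, Cd3g, Cd4, Cd8a, Gm4951, Gm12250, Gvin1 and Cxcl10. Of 202 listed genes 197 were in the table, and Gbp2b, Socs1, Ciita, Ifnb1 and Gsdmd were not analysed here. Intervals and floors cover counting error or library spread as stated, and duplicated fragments are not independent molecules.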

Additional observations from a re-analysis of the deposited data

Results flagged for a closer look

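Of 40 sets of 4 libraries (10 genes in 4 groups), 4 held a library that lay far from the other 3, by Dixon's ratio of gap to range against its 95% critical value for 4 samples. Chance alone marks about 1 in 20 such sets. In ret/ret animal 1, Gbp3 stood at 45.5 CPM in thalamus, against 9.21 to 13.6 CPM in the other ret/ret thalamus libraries. In the cortex library of the same animal, Iigp1 stood at 8.21 CPM, against 3.69 to 4.36 CPM, and Irgm2 at 12.7 CPM, against 6.80 to 7.67 CPM. In ret/wt cortex replicate 2, Gbp7 stood at 7.60 CPM, against 3.92 to 4.05 CPM in the other 3 controls, which is the library that made the genotypes overlap for this gene.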

How the results depend on the processing

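The log2 fold change of all 10 members stayed above 0 in ret/ret against ret/wt in both regions under all alternatives run, and moved by more than its spread only for Gbp3 (0.85) and Gbp5 (0.90) in thalamus without ret/ret replicate 1. The counts of all genes called changed more. In cortex by genotype it was 7 with all 16 libraries in 1 fit, 38 in DESeq2 (2 of them members), 1 without the animals with Y-linked reads and 0 to 2 with 1 library left out. In thalamus by genotype it was 3 with all 16 libraries and 37 in DESeq2, and for the interaction 4 in DESeq2. Between regions of ret/ret it was 2591 in DESeq2, 2564 without the animals with Y-linked reads, 534 without both libraries of ret/ret animal 1 (chosen after seeing the data) and 627 to 2007 with 1 library left out, falling to 627, 759, 714, 691 and 688 without cortex replicate 3, cortex replicate 4 and thalamus replicates 1, 3 and 4. Between regions of ret/wt it was 1178 (without cortex replicate 1) to 1797 with 1 library left out, and 0 to 1 members were called (Gbp2, without thalamus replicate 3). The cause of these changes was not tested.

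Region differences of members near 0 changed sign. In ret/wt, Irgm1 was 0.10 without the animals with Y-linked reads. In ret/ret, without these animals Iigp1 was 0.02 and Irgm1 0.03, Iigp1 was 0.00 with DESeq2 size factors and in DESeq2 and 0.01 without a filter, and Gbp2 was -0.17 without both libraries of animal 1. With 1 library left out, ret/wt ranges were -0.01 to 0.43 for Gbp3, -0.09 to 0.19 for Gbp5, -0.46 to 0.20 for Gbp7, -0.15 to 0.51 for Igtp, -0.24 to 0.06 for Irgm1, and ret/ret ranges were -0.29 to 0.36 for Gbp2, -0.23 to 1.06 for Gbp3, -0.16 to 0.68 for Gbp5, -0.46 to 0.35 for Iigp1, -0.26 to 0.16 for Irgm1, -0.26 to 0.37 for Irgm2. The interaction also changed sign with 1 library left out: -0.39 to 0.87 for Gbp3 and -0.23 to 0.57 for Gbp5 (both lowest without ret/ret thalamus replicate 1), -0.72 to 0.07 for Gbp4, -0.53 to 0.06 for Gbp6, -0.52 to 0.17 for Gbp7 and -0.18 to 0.21 for Irgm1.

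With the animal as a replicate block, 0 members were called between regions in either genotype and Gbp2 in ret/ret was -0.03. All genes called were then 1487 in ret/wt and 1177 in ret/ret. The number as a block across genotypes pairs different animals; it gave 0 genes in cortex and 0 in thalamus, and residuals of equal numbers correlated at -0.13 to 0.15.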

Other observations

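Other interferon-inducible GTPases, chosen here after their values were seen, had wide errors. In cortex the log2 fold change of ret/ret against ret/wt was 2.49 ± 0.55 (SE) for Gm4951, a neighbour of Iigp1. It was 2.16 ± 0.89 (SE) for Gm12250 beside Igtp, which GENCODE M21 labels a processed pseudogene, and 1.58 ± 0.45 (SE) for Gvin1, which encodes a giant GTPase. In ret/wt cortex Gm4951 ran from 0.0731 to 0.308 CPM and Gm12250 from 0 to 0.628 CPM, near the floor of 3 counts, so their fold changes rest on few control counts. Gm4951 shared 10.4% of its 31-base words with Iigp1. The reads assigned to Gvin1 were uncertain, since 0.3% of its 31-base words occurred in no other gene and most were shared with Gm4070. In thalamus the log2 fold changes of Gm4951, Gm12250 and Gvin1 were 1.52 ± 0.78, 1.25 ± 0.70 and 0.83 ± 0.48 (SE). None was called by edgeR in either region.

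Cxcl10, an interferon-induced chemokine too low to be tested by genotype, ran from 0.0879 to 0.157 CPM in ret/wt cortex and from 0.195 to 2.47 CPM in ret/ret cortex. It ran from 0.129 to 0.239 CPM in ret/wt thalamus and from 0.194 to 4.21 CPM in ret/ret thalamus. The highest value of each ret/ret group was in animal 1.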
